A study of Mus musculus with 3 samples.

Results

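The 10 genes described here encode the actin and tropomyosin isoforms of the mouse: the actins Actb, Actg1, Acta1, Acta2, Actc1 and Actg2, and the tropomyosins Tpm1, Tpm2, Tpm3 and Tpm4. They were followed in F9 embryonal carcinoma cells, a mouse teratocarcinoma line kept here in its undifferentiated state. Total RNA of 1 group of 3 labelled replicates was hybridised to 3 Affymetrix Mouse Genome 430 2.0 arrays. Per the labels, the cells grew with 10% serum on plates coated with 0.2% gelatin and were taken at about 80% confluence, with no treatment, allele or agent that differs between replicates. There is no other group, so the question was which isoforms gave a signal above the arrays' background, and how far that depended on the probe set used. A probe set is the group of short probes that together report 1 transcript. All probe sets to which the platform annotation gives a single gene symbol, 1 of these 10, were taken, 26 of 45101. Of these, 3 are the manufacturer's Actb control probe sets. Probe sets annotated with several symbols were left out.

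Actin is the monomer of the thin filament, and tropomyosin is a coiled-coil dimer that lies along the filament and sets which other proteins can reach it. Actb and Actg1 encode the cytoplasmic actins present in nearly all cells, whereas Acta1 (skeletal muscle), Actc1 (heart), Acta2 (vascular smooth muscle) and Actg2 (enteric smooth muscle) encode the muscle actins. The actin proteins are almost the same in sequence, and the tropomyosin genes each make several transcripts by alternative promoters and splicing. Both properties bear on an array, because a short probe can match more than 1 isoform. The manufacturer's suffixes record this: a plain _at probe set was designed for 1 transcript, _a_at for several transcripts of 1 gene, _s_at for probes shared by transcripts that may come from different genes, and _x_at for sets in which some probes resemble other sequences.

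Many actin genes are known targets of serum response factor (SRF), which binds a short DNA element called the CArG box. Promoter windows of 300 bases, from 250 before to 50 after an annotated start, were taken from RefSeq (build GRCm38.p6) and searched for the CArG box. The motif reads the same on both strands. Windows were found for 8 of the 10 genes (9 windows, Tpm3 having 2), but not for Actb and Actg2. An exact CArG box was present in the windows of 3 members, Actg1, Acta1 and Actc1, against 1.63% of all 32851 windows. The Acta2 window held no exact box and 2 looser matches, which carry 1 G or C within the A/T core. A match of either form, exact or looser, was present in 9.98% of all windows. These stretches are shown to describe the windows, and whether the element bears on the signals given below was not tested. Each is a 60-base stretch, with the 10 bases of the match in capitals.
Actg1, CArG box 90 bases before the start, chr11:120348551-120348610, minus strand: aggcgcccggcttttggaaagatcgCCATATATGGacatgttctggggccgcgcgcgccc
Acta1, CArG box 73 bases before the start, chr8:123894814-123894873, minus strand: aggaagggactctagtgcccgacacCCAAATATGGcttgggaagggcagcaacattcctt
Actc1, CArG box 47 bases before the start, chr2:114052888-114052947, minus strand: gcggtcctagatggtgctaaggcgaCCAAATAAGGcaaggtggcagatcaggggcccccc
Acta2, looser match 84 bases before the start, chr19:34255423-34255482, minus strand: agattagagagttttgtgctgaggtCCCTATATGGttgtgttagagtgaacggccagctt
Acta2, looser match 34 bases before the start, chr19:34255373-34255432, minus strand: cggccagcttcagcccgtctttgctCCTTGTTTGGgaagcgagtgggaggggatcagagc
A match of letters is a description of the window, not evidence of binding. No window of Tpm1, Tpm2, Tpm3 or Tpm4 held an exact match, and both Tpm3 windows held 1 looser match. Looser matches also stood beside the exact one in Acta1, which had 3 matches in all, and in Actc1, which had 4.

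Signals are linear intensities that had been brought to a common trimmed mean. The background threshold of an array was the 95th percentile of 129 probe sets for sensory receptor genes (smell, pheromone and taste) and hair proteins of the keratin-associated family. It stood at 44.4, 46.0 and 43.1 on replicates 1, 2 and 3. For each probe set the log2 signal over this threshold was tested with limma (one-sided, Benjamini-Hochberg adjustment over all 45101 probe sets, threshold 0.05). A probe set that passed is called above background. For one that did not, the transcript may still have been present. Signals of different probe sets also depend on how well the probes bind, so no level was tested against that of another probe set. Where genes or probe sets are ordered by signal, the order is a description only. The labels do not say whether the replicates came from separate cultures, so the p-values cover only the variation seen among these samples, part or all of which can be technical, and the number of arrays limits their precision.

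Both cytoplasmic actins and all 4 tropomyosins were above background, and of the 4 muscle actins only Acta2 was, on its _s_at probe set alone. Taking each gene by its brightest non-control probe set, 7 of 10 genes passed limma's test, against 51.1% of the 18078 named genes outside the background families. Among single probe sets, 16 of 26 passed, or 13 of 23 without the controls, against 38.2% of all non-control probe sets. Without a test, 15 of the 23 lay over the threshold on every array, against 41% of all. By family, 3 of 6 actin genes and 4 of 4 tropomyosin genes were above background, with median log2 values over the threshold of 0.93 and 3.34. The median over all named genes was 0.72.

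**Figure D1:**
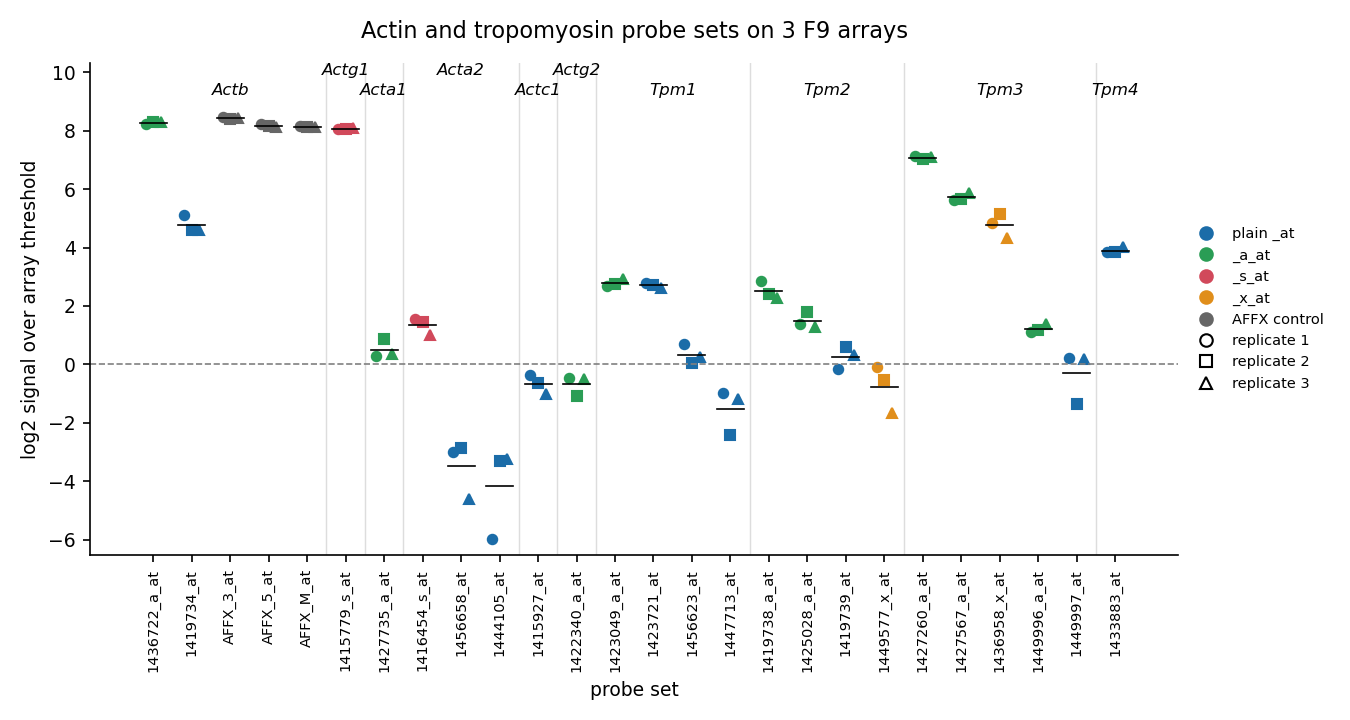
Log2 signal over the array's background threshold (vertical axis) for all 26 probe sets of the actin and tropomyosin genes (horizontal axis), with 1 symbol per replicate, a black bar at the mean of 3 arrays and colours for the probe set suffix. The bright Actb and Actg1 probe sets lie about 8 units over the dashed threshold line (8.26 and 8.06 for the brightest of each), the Acta2 _s_at probe set at 1.34, and the remaining Acta2 probe sets at or below -2.86 on every array.

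Actb, the cytoplasmic beta-actin gene often used as a loading reference, had 5 probe sets, all above background. Probe set 1436722_a_at read 13352, 14350 and 13352 on replicates 1, 2 and 3, a mean of 13685 ± 576 (SD, n = 3). This was 8.26 log2 units over the threshold (SE 0.11, limma adjusted p = 0.000109). The arrays lay within a factor of 1.07 of each other. The plain probe set 1419734_at read 1537, 1108 and 1049, or 1231 ± 266 (SD, n = 3), 4.77 log2 units over the threshold (limma adjusted p = 0.000189). Here replicate 1 was the highest, 1.46 times the lowest array, while on 1436722_a_at replicate 2 was the highest.

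The control probe sets target the 3' end, the middle and the 5' end of the Actb transcript, so they also report how complete the RNA and its copies were. The 3' set read 15560, 15459 and 14979, the middle set 12593, 12958 and 12004, and the 5' set 13273, 13151 and 12064 on replicates 1, 2 and 3. All 3 sets were lowest on replicate 3. The ratio of 3' to 5' signal was 1.17, 1.18 and 1.24. Gapdh, a glycolytic enzyme with the same kind of control sets, had ratios of 0.794, 0.810 and 0.814. The ratios of both genes were similar across arrays and highest on replicate 3.

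Actg1, the gene for cytoplasmic gamma-actin, was measured by a single probe set among those taken, 1415779_s_at. It read 11703, 12150 and 11752, a mean of 11868 ± 245 (SD, n = 3), 8.06 log2 units over the threshold (SE 0.11, limma adjusted p = 0.000109). The arrays agreed within a factor of 1.04. Its window carries the CArG box shown above. Because this probe set is of the _s_at kind, Actg1 has no value once _s_at and _x_at probe sets are left out, and no probe set designed for 1 transcript could be set beside it.

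Acta2, the smooth muscle alpha-actin gene that also marks myofibroblasts, was above background on its _s_at probe set and far below it on its other probe sets. Probe set 1416454_s_at, designed on a RefSeq transcript, read 131, 127 and 87.0 on replicates 1, 2 and 3. Its mean of 115 ± 24.1 (SD, n = 3) lay 1.34 log2 units over the threshold (SE 0.17, limma adjusted p = 0.00477). All arrays were above the threshold, at 1.56, 1.46 and 1.01 log2 units, with replicate 3 the lowest. It passed under all 10 alternatives that keep the probe set, with limma adjusted p from 9.00e-06 to 0.0363, the last with a replicate left out. In RNA from a whole culture, a few cells rich in a transcript and many cells poor in it cannot be told apart.

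The plain probe sets of Acta2 were each designed on a sequence other than a RefSeq transcript. In Acta2 the suffix and the kind of design sequence therefore cannot be told apart. Probe set 1456658_at read 5.61, 6.35 and 1.77, or 4.57 ± 2.46 (SD, n = 3), at -3.49 log2 units relative to the threshold (SE 0.46). Probe set 1444105_at read 0.710, 4.71 and 4.56, or 3.33 ± 2.27 (SD, n = 3), at -4.17 log2 units (SE 0.72). No array came near the threshold on either of them. Of the plain Acta2 probe sets, 0 of 2 passed limma's adjusted test, 0 had an unadjusted limma p under 0.05, and 0 lay over the threshold on every array.

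Over the whole array the share above background also differed by suffix, but within genes the pattern of Acta2 was not the commoner one. Of probe sets ending in _s_at or _x_at, 58% were above background, against 35.9% of those with other suffixes. By single suffix the shares were 64.2% for _s_at, 52.8% for _x_at, 64.8% for _a_at and 32.4% for plain _at. Both kinds of probe set were present for 2768 named genes. In 184 of them (6.65%), as in Acta2, only _s_at or _x_at probe sets were above background, and in 338 (12.2%) only the others were. Both kinds were above background in 1543 (55.7%) and neither in 703 (25.4%). In the layout of Acta2, 1 probe set of the first kind beside 2 others, there were 714 genes, and 30 of them (4.20%) showed its pattern. Whether probes of 1416454_s_at also bind transcripts of Actb, Actg1 or another actin was not tested, since the deposited values hold no probe sequences.

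**Figure D2:**
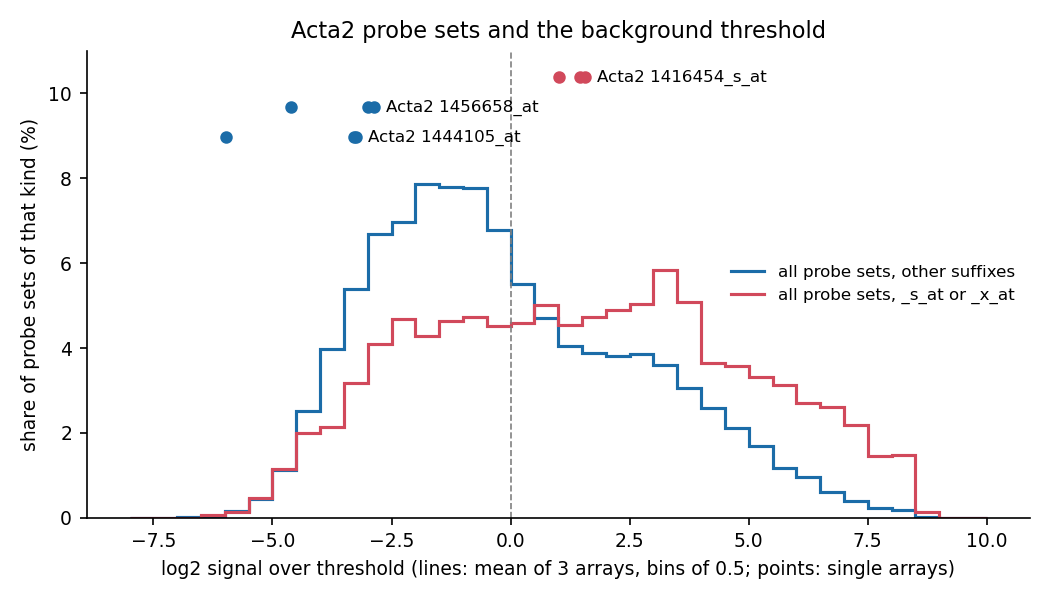
Share of all non-control probe sets (vertical axis, %) by log2 signal over the background threshold (horizontal axis, mean of 3 arrays in bins of 0.5), for _s_at or _x_at probe sets and for other suffixes. Points show the Acta2 probe sets on each array, at heights chosen for legibility: 1416454_s_at lies right of the threshold at 1.01 to 1.56, and the plain probe sets lie between -5.97 and -2.86.

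The other muscle actins were not above background by limma's test. Acta1 encodes the skeletal muscle alpha-actin. Its probe set 1427735_a_at read 54.5, 84.5 and 55.4, or 64.8 ± 17.1 (SD, n = 3), 0.51 log2 units over the threshold (SE 0.18, limma adjusted p = 0.0759, unadjusted p = 0.0296). It exceeded the threshold on all 3 arrays, and replicate 2 was the highest. The call depended on the processing: it passed with the threshold at the 90th percentile (limma adjusted p = 0.0187), with a variance trend (0.0469) and with the dimmest 25% of probe sets left out (0.0448). At the 99th percentile it stood at 0.13 log2 units with an adjusted p of 0.827.

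Actc1, the cardiac alpha-actin, read 34.9, 29.6 and 21.6 on 1415927_at, or 28.7 ± 6.69 (SD, n = 3), at -0.66 log2 units from the threshold. Actg2, the enteric smooth muscle gamma-actin, read 32.0, 22.0 and 30.4 on 1422340_a_at, or 28.1 ± 5.37 (SD, n = 3), at -0.68 log2 units. Both lay under the threshold on all 3 arrays, with limma adjusted p of 1.00 each, and neither passed under any of 10 alternatives. Acta1, Actc1 and Actg1 each carry an exact CArG box in their window. Whether the box bears on any of these signals was not tested.

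The tropomyosins were above background as genes, but for 3 of the 4 some probe sets passed and others did not. Of their 14 probe sets 9 passed limma's test. Tpm3, which makes cytoskeletal tropomyosins in most cells and the slow-muscle form in muscle, had 4 of 5 probe sets above background. Probe set 1427260_a_at read 6164, 5997 and 5830, or 5997 ± 167 (SD, n = 3), 7.07 log2 units over the threshold (limma adjusted p = 0.000109). Probe set 1427567_a_at read 2202, 2317 and 2504, or 2341 ± 153 (SD, n = 3), at 5.71 log2 units. These _a_at probe sets varied by factors of 1.06 and 1.14 between arrays.

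The remaining Tpm3 probe sets were less even. Probe set 1436958_x_at read 1285, 1637 and 867, or 1263 ± 385 (SD, n = 3), at 4.78 log2 units, with replicate 2 reading 1.89 times replicate 3. Probe set 1449996_a_at, designed on a RefSeq transcript, read 96.5, 104.6 and 112.8, at 1.23 log2 units (limma adjusted p = 0.00247). The plain 1449997_at, designed on the same RefSeq transcript, read 51.7, 18.2 and 49.5, at -0.31 log2 units, and did not pass. It lay slightly over the threshold on replicates 1 and 3 and clearly under it on replicate 2. Which of the Tpm3 transcripts each probe set reports is not given in the sources used here.

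Tpm4, a cytoskeletal tropomyosin, had 1 probe set, the plain 1433883_at. It read 637, 654 and 693, or 661 ± 28.4 (SD, n = 3), 3.89 log2 units over the threshold (SE 0.11, limma adjusted p = 0.000139). The arrays lay within a factor of 1.09. Of the 7 genes above background it is the one measured by a plain probe set alone.

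Tpm1, which makes both muscle and cytoskeletal tropomyosins, had 2 of 4 probe sets above background. Probe set 1423049_a_at read 288, 310 and 323, or 307 ± 17.8 (SD, n = 3), at 2.79 log2 units (limma adjusted p = 0.000255). The plain 1423721_at read 306, 299 and 266, or 291 ± 21.2 (SD, n = 3), at 2.70 log2 units (limma adjusted p = 0.000246). The arrays were in opposite order on these probe sets, lowest on replicate 1 for the former and lowest on replicate 3 for the latter. The plain 1456623_at (71.4, 47.8 and 51.9) exceeded the threshold on all 3 arrays without passing, at 0.33 log2 units (limma adjusted p = 0.187), and passed with the 90th percentile (0.0440). The plain 1447713_at (22.8, 8.76 and 19.0) lay at -1.51 log2 units.

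Tpm2, best known from skeletal and smooth muscle, also had 2 of 4 probe sets above background. Probe set 1419738_a_at read 320, 243 and 210, or 258 ± 56.6 (SD, n = 3), at 2.51 log2 units (limma adjusted p = 0.000872). Probe set 1425028_a_at read 116, 159 and 105, or 127 ± 28.6 (SD, n = 3), at 1.49 log2 units (limma adjusted p = 0.00310). Replicate 1 was the highest on the former and replicate 2 on the latter. The plain 1419739_at read 40.2, 69.1 and 53.9, at 0.25 log2 units (limma adjusted p = 0.340), and 1449577_x_at read 41.6, 31.6 and 13.7, at -0.76 log2 units. Both _a_at probe sets passed under all 10 alternatives, and the plain and _x_at ones under none.

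Over the 10 genes, 5 had several non-control probe sets, and in 4 of these (Acta2, Tpm1, Tpm2 and Tpm3) the calls differed between probe sets. Over all named genes this was so for 3588 of 8998 (39.9%). Of the 10 plain _at probe sets of the members 3 were above background (32.4% over the array), and of the 9 _a_at probe sets 7 (64.8%). Of the 2 _s_at both were (64.2%), and of the 2 _x_at 1 (52.8%). Of the 7 designed on a RefSeq transcript 4 were above background (48.5% over the array), and of the 14 designed on another sequence 8 (43.8%). When each gene was instead taken by its plainest suffix, 4 of 10 genes were above background. Acta2 (-3.49), Tpm3 (-0.31) and Tpm2 (0.25 log2 units, limma adjusted p = 0.340) then did not pass. With _s_at and _x_at probe sets left out, 5 genes were above background of the 9 still measured, since Actg1 had no other probe set. The shares of all named genes under these choices were not computed. The 51.1% given above holds for the brightest probe set only.

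Actins serve as reference genes, so the spread of the members between arrays was set beside that of all probe sets above background. The SD of log2 signal over the arrays had a median of 0.11 over the 13 non-control member probe sets above background, with a range from 0.030 (Actg1) to 0.46 (Tpm3 1436958_x_at). Of these 13, only 4 are actin probe sets and 9 are tropomyosin probe sets, so the median does not stand for the actins. The median over all 17185 probe sets above background was 0.13. For Actb, 1436722_a_at had an SD of 0.060 and 1419734_at of 0.30, and 88.7% of all probe sets above background had a smaller SD than the latter. Acta2 1416454_s_at had an SD of 0.33, and 91.7% had a smaller one. The actin SDs thus lay on both sides of the 0.13 median. Among probe sets with mean signals from 1000 to 5000, where 1419734_at lies, the median SD was 0.085 and the 95th percentile 0.22. For signals from 5000 to 30000, where 1436722_a_at and the Actg1 probe set lie, the median SD was 0.058 and the 95th percentile 0.13. By signal, replicate 3 was the lowest array for 11 of the 16 member probe sets above background, and replicates 1 and 2 for 5 and 0. These 16 include the 3 Actb control sets, which report 1 transcript. Actb 1436722_a_at was close to a tie, at 13351.5 on replicate 3 and 13352.3 on replicate 1. The threshold was also lowest on replicate 3, so signals over it can order the arrays differently. Actb 1419734_at, for example, stood at 4.59 log2 units on replicate 2 and 4.60 on replicate 3. The share lowest on replicate 3 over all probe sets above background was not computed. The median signal over the whole array was also lowest on replicate 3, at 36.0 against 37.8 on replicate 1 and 37.8 on replicate 2.

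**Figure D3:**
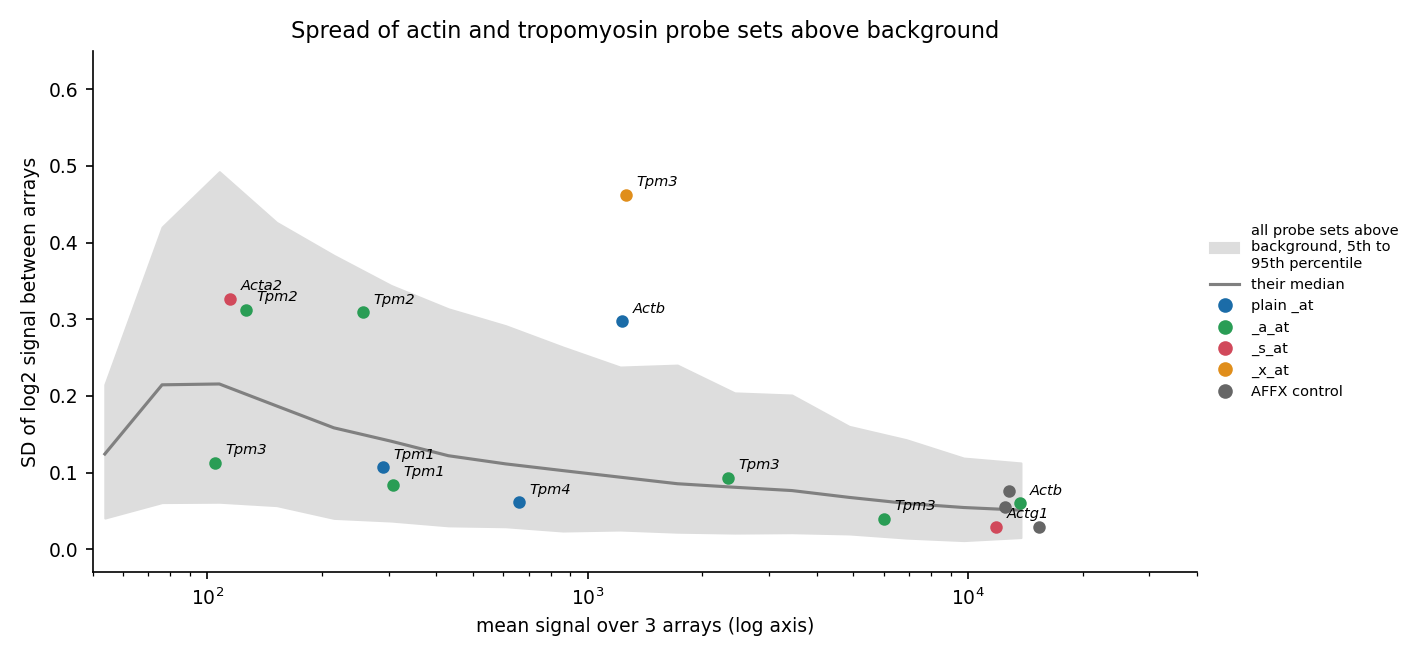
SD of log2 signal between the 3 arrays (vertical axis) against mean signal (horizontal log axis) for the 16 member probe sets above background, coloured by suffix and labelled by gene (control sets unlabelled), with the median and the 5th to 95th percentile of all probe sets above background in bins of signal. Actg1 (0.030) and the bright Actb probe set (0.060) lie within the shaded range for their signal. Actb 1419734_at (0.30) and Tpm3 1436958_x_at (0.46) lie above the shaded range.

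Genes for nucleating, severing, crosslinking and folding actin were mostly above background. Those for tropomodulins, leiomodins and troponins and those for actin-related proteins mostly were not. The 8 lists of actin-system genes held 145 genes, of which 132 were measured and 90 (68.2%) were above background by their brightest probe set, against 51.1% of all named genes. The counts are descriptions of these lists, with no test of a list against others. In filament nucleation and elongation, 22 of 25 measured genes passed. The Arp2/3 complex genes Actr3 (4749 ± 204, SD, n = 3) and Arpc2 (3598 ± 160) and the filament elongator Enah (4104 ± 299) stood at 6.74, 6.34 and 6.52 log2 units. Was, the WASP gene of blood cells (18.3 ± 11.6, -1.46), Daam2 (29.7 ± 5.15, -0.60) and Wasf3 (58.4 ± 20.1, 0.32) did not pass.

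Of the genes for monomer binding, severing and capping, 20 of 28 passed. The monomer-binding thymosins Tmsb10 (11631 ± 525, SD, n = 3) and Tmsb4x (8460 ± 261) and the severing protein cofilin, Cfl1 (8270 ± 522), stood at 8.03, 7.57 and 7.54 log2 units. Tmsb10 also rests on an _s_at probe set, and with _s_at and _x_at probe sets left out it stood at -0.94. The intestinal villin Vil1 (5.33 ± 2.51, -3.16), Capza3 (4.23 ± 4.78, -4.02) and Pfn4 (2.70 ± 0.960, -4.11), the last of these known from testis, were not above background. Crosslinkers passed in 13 of 17 cases, led by the bundling protein fascin, Fscn1 (6769 ± 330, 7.25), the alpha-actinin Actn4 (4063 ± 393, 6.51) and the spectrin Sptbn1 (2302 ± 182, 5.69). Fscn2 (2.44 ± 1.24, -4.30), a photoreceptor fascin, Lcp1 (11.8 ± 9.07, -2.28), the plastin of white blood cells, and Fscn3 (22.7 ± 11.0, -1.08) did not pass.

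Among tropomodulins, leiomodins and troponins, which cap or regulate the tropomyosin-coated filament, 1 of 17 passed. This was Tmod3, the widely expressed tropomodulin that caps filament ends (683 ± 43.1, SD, n = 3), at 3.94 log2 units. The troponins Tnnc1 (40.7 ± 13.8, -0.19), Tnnt1 (37.5 ± 21.0, -0.45) and Tnnt2 (4.71 ± 1.97, -3.35), the giant thin-filament protein nebulin, Neb (4.73 ± 5.80, -4.05), and the skeletal muscle tropomodulin Tmod4 (9.81 ± 13.8, -3.32) did not pass. Of the non-muscle myosin II genes 5 of 7 passed. These were the heavy chains Myh9 (1135 ± 57.2, 4.67) and Myh10 (786 ± 95.3, 4.13) and the light chains Myl12b (4540 ± 300, 6.67), Myl12a (4202 ± 205, 6.56) and Myl6 (125 ± 13.4, 1.49). The heavy chain Myh14 (60.4 ± 11.8, 0.42; limma adjusted p = 0.0909) and Myl9 (9.61 ± 8.81, -2.59), a light chain rich in smooth muscle, did not pass.

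SRF itself and most of its partners were above background, in 6 of 7 cases. Srf stood at 207 ± 13.3 (SD, n = 3), 2.21 log2 units over the threshold, and its actin-sensing coactivators Mrtfa and Mrtfb at 145 ± 29.3 (1.68) and 529 ± 46.0 (3.57). The ternary complex factors Elk4 (226 ± 22.4, 2.34) and Elk3 (131 ± 16.3, 1.55) passed. So did Elk1 (80.2 ± 24.6, 0.81; limma adjusted p = 0.0366), whose call was lost without replicate 2 (0.106), without replicate 3 (0.139) and at the 99th percentile (0.302). Myocd, the muscle-restricted coactivator (9.45 ± 7.72, -2.57), was not above background.

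Genes for folding and modifying actin passed in 18 of 19 cases. Subunits of the chaperonin that folds new actin were high over the threshold: Cct2 (9084 ± 373, SD, n = 3) at 7.67, Cct5 (8863 ± 174) at 7.64 and Cct6a (8858 ± 744) at 7.63 log2 units. Setd3, the methyltransferase that modifies an actin histidine (741 ± 60.8, 4.05), and Ate1, an arginyltransferase (348 ± 50.5, 2.96), also passed. The call of Setd3 rested on its _a_at probe set, since its plain probe set of highest signal lay at 0.057. Cct6b, a testis form of a chaperonin subunit (2.50 ± 0.730, -4.20), did not. Of the actin-related proteins 5 of 12 (41.7%) passed, against 51.1% of all named genes. Among them were the chromatin subunit Actl6a (2539 ± 227, 5.83), the dynactin subunit Actr1a (830 ± 57.1, 4.22) and Actr6 (739 ± 82.3, 4.05). The neuronal Actl6b (7.77 ± 3.43, -2.60), Actrt1 (11.1 ± 2.49, -2.03) and Actrt3 (13.3 ± 15.1, -2.38) did not. Actr1a lay at -1.02 on the probe set of plainest suffix.

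**Figure D4:**
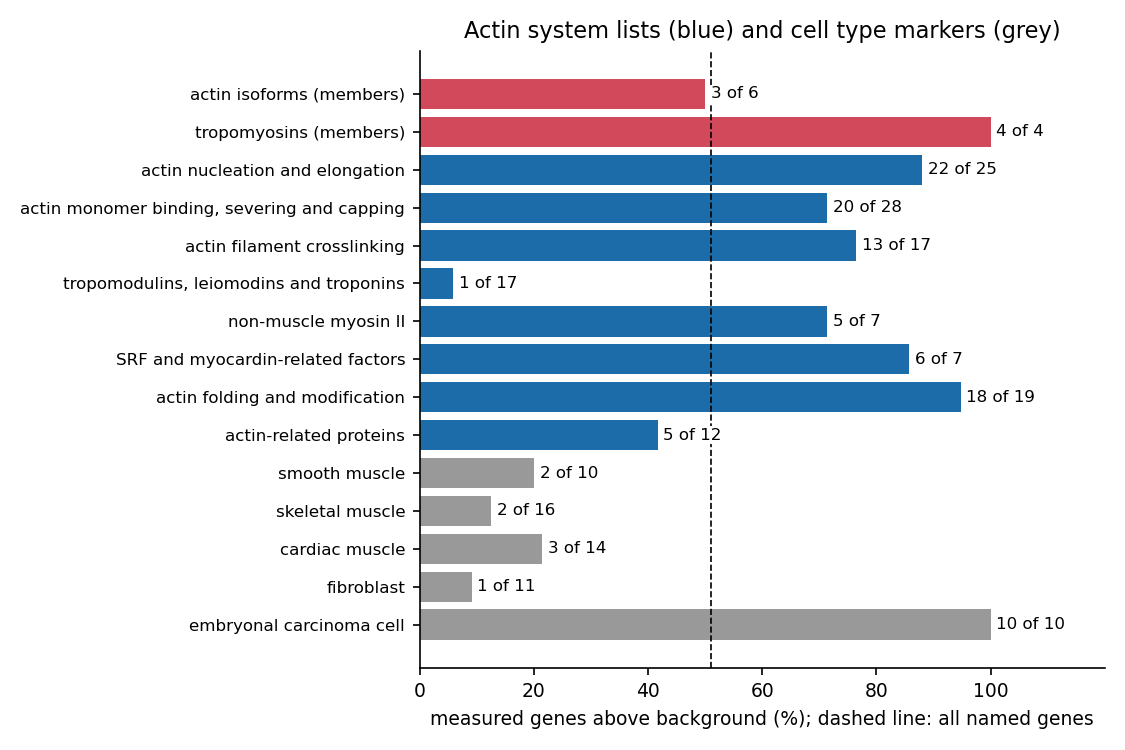
Share of measured genes above background (horizontal axis, %) for the actin and tropomyosin genes (red), 8 lists of the actin system (blue) and 5 cell type marker lists (grey), with the counts beside the bars and a dashed line at 51.1% for all named genes. The lists of tropomodulins, leiomodins and troponins (1 of 17) and of actin-related proteins (5 of 12) lie left of the line. So do the muscle and fibroblast markers. Nucleation (22 of 25) and folding (18 of 19) lie right of the line.

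Markers of the cell types that muscle actins are known from were mostly not above background, whereas 51.1% of all named genes were. The embryonal carcinoma markers passed in 10 of 10 cases, with the embryonic stem cell gene Dppa5a at 8.64 and the pluripotency factor Pou5f1 at 7.26 log2 units, so the markers of the labelled cell type were present. Zfp42 stood at 7.11, the nuclear receptor Esrrb at 5.95, the RNA-binding protein Lin28a at 5.42 and the growth factor Fgf4 at 5.40 log2 units. The smooth muscle list had 2 of 10 above background, Cald1 (808 ± 125, SD, n = 3, 4.17) and Smtn (138 ± 23.7, 1.62), which are also known from other cells. The 3 lowest of the list, Myh11 (5.29 ± 5.85, -3.67), Lmod1 (5.70 ± 2.41, -3.07) and Cnn1 (6.90 ± 3.12, -2.78), lay under the threshold, and Des (56.2 ± 21.9, 0.26) did not pass. Whether cells of this kind add to the Acta2 _s_at signal was not tested.

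The skeletal muscle list had 2 of 16 above background, against 51.1% of all named genes. These were the fast myosin light chain Mylpf (3166 ± 88.3, SD, n = 3, 6.15) and the alpha-actinin Actn3 (120 ± 17.2, 1.42). Casq1, a calcium store protein (49.0 ± 13.2, 0.098), did not pass. The regulators Myf5 (5.09 ± 4.83, -3.55) and Myf6 (6.47 ± 6.25, -3.26) and the heavy chain Myh1 (9.92 ± 15.5, -3.98) lay under the threshold. Of the cardiac list 3 of 14 passed, the light chains Myl4 (172 ± 6.82, 1.95), Myl7 (102 ± 8.91, 1.19) and Myl3 (89.7 ± 29.5, 0.95; limma adjusted p = 0.0415). Myl3 lost its call at the 99th percentile (0.241) and without replicate 2 or replicate 3 (0.156 and 0.131). Myh6 (12.9 ± 2.17, -1.80) and Nppa (17.6 ± 17.1, -1.81) did not pass. Of the fibroblast list only Thy1 (105 ± 17.3, 1.22) of 11 passed, and Loxl1 (70.5 ± 18.8, 0.63) had a limma adjusted p of 0.0565. Fap (2.94 ± 1.31, -4.01), Dcn (13.3 ± 15.7, -2.43), Postn (12.3 ± 8.59, -2.15) and Pdgfrb (43.0 ± 5.43, -0.058) did not pass.

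The members also differ in the base composition of their starts, which the choice of members did not use. CpG dinucleotides, which cluster at the starts of widely expressed genes, were counted in the same 300-base windows. Actg1 had 50, Tpm4 31, Tpm1 27 and Tpm2 20, and the Tpm3 windows had 3 and 15. Acta1 had 12, Actc1 7 and Acta2 6. Over the 14268 named genes with a window, taking each gene's window richest in CpG, the median was 23 for the 7611 genes above background and 8 for the 6657 not above it. The 25th to 75th percentiles ran from 17 to 31 and from 4 to 20, so these ranges overlapped only from 17 to 20. Acta2 and both Tpm3 windows lay under 17, although both genes were above background. With the window poorest in CpG the medians were 21 and 7. The G and C share ran from 77.3% in Actg1 to 54.7% in Acta2 and 52% in the first Tpm3 window. Exact CArG boxes were found in 1.10% of genes above background and 1.52% of the others, counting the CpG-richest window.

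**Figure D5:**
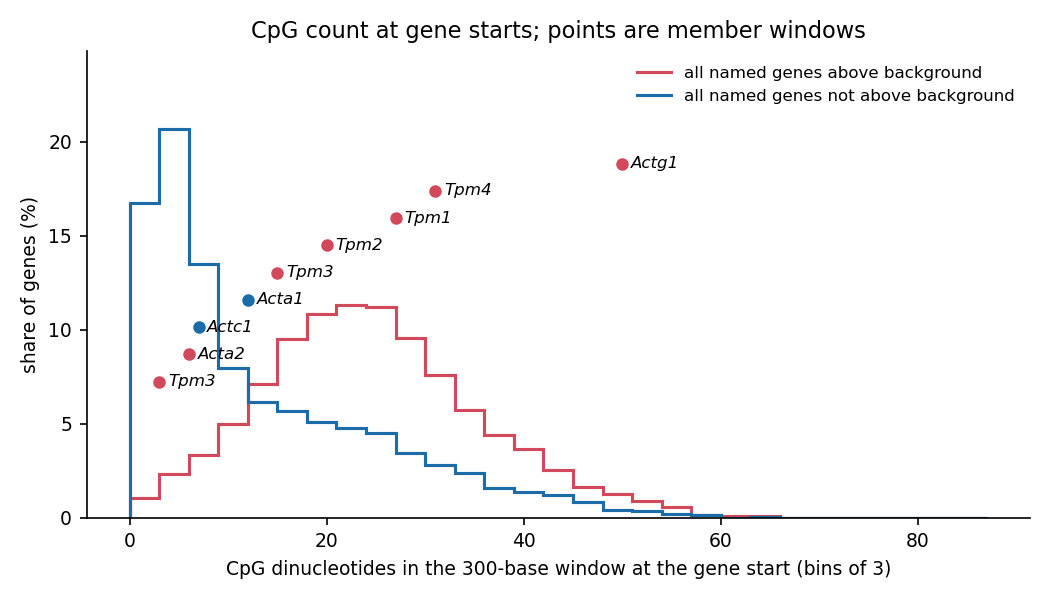
Share of named genes (vertical axis, %) by CpG dinucleotides in the 300-base window at the gene start (horizontal axis, bins of 3, the CpG-richest window of each gene), for genes above background (red, median 23) and not above background (blue, median 8). Points mark the 9 member windows in the colour of the gene's call, at heights chosen for legibility, from 3 CpG in a Tpm3 window to 50 in Actg1.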

How the data were processed

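The files hold 1 linear intensity per probe set for each array, as the authors deposited them, made with GCOS 1.4 per the submitters' processing notes. Which signal algorithm and present calls were used is not given in the sources used here, and the values carry no genome build. Equal trimmed means show that arrays were scaled to each other before deposit, which hides any change in total RNA. The platform annotation dates from 2016 and gave 34945 non-control probe sets 1 symbol, 932 several and 9160 none. List symbols were matched through RefSeq gene identifiers.

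An intercept-only model of log2 signal minus log2 threshold was fitted in R 4.3.3 with limma 3.58.1 (lmFit, eBayes) and tested one-sided, with Benjamini-Hochberg adjustment over 45101 probe sets. A gene was represented by its brightest probe set. All members and, of each list, the 3 highest and 3 lowest genes were named, or all in lists of up to 7 genes. Some genes stand on more than 1 list. The members and lists were chosen with earlier results of these data known. Alternatives changed the threshold, background families, scaling, offset, variance model, filter, probe set choice or replicates.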

Additional observations from a re-analysis of the deposited data

How the results depend on the processing

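With 3 arrays of 1 group there is no second condition, and signals near the threshold are the least secure. Of 258 repeats of member probe sets, 250 kept their direction and side of the threshold. The number of member genes above background was 4 instead of 7 with the plainest suffix. The fibroblast list had 2 members above background instead of 1 at the 90th percentile, with log2(signal + 16), with a variance trend and with dim probe sets left out. The last of these removed both plain Acta2 probe sets, so it gave no value for them. All other counts stayed within 1.5 times. No paired analysis was possible because there is 1 group.

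Values that changed sign, in log2 units over the threshold, were as follows. At the 90th percentile Tpm3 1449997_at stood at 0.028, Tnnc1 at 0.15 and Pdgfrb at 0.28. At the 99th, Tpm2 1419739_at stood at -0.13, Tpm1 1456623_at at -0.047, Wasf3 at -0.060, Des at -0.12 and Casq1 at -0.28. With a replicate left out the ranges were -0.57 to 0.21 for Tpm3 1449997_at, -0.41 to 0.063 for Tnnc1, -0.82 to 0.090 for Tnnt1, -0.028 to 0.56 for Des, -0.027 to 0.32 for Casq1 and -0.13 to 0.025 for Pdgfrb. With the plainest suffix Acta2 stood at -3.49, Tpm3 at -0.31, Tmsb10 at -0.94 and Actr1a at -1.02. Without _s_at and _x_at probe sets Acta2 stood at -3.49 and Tmsb10 at -0.94. The cause of these changes was not tested beyond the settings themselves.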

Other observations

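The 30 genes that show the layout and pattern of Acta2, itself included, were inspected after their values were seen. On the better of the other probe sets, Acta2 had the lowest value of the 30, -3.49 log2 units, followed by Xist at -3.35. The genes named next are examples. In Phactr4, a gene for an actin-binding phosphatase regulator, the _s_at probe set read a mean signal of 285, 2.68 log2 units over the threshold, and the better of the other probe sets lay at -2.70. In Plagl1, an imprinted zinc finger gene, the _x_at probe set read 1635 (5.20 log2 units) and the better other at -0.44. In Pds5a, a cohesin regulator, the _s_at probe set read 748 (4.07) and the better other was at 0.72.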
